A study of Homo sapiens with 16 samples.

Results

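The HOX genes are the homeobox genes that lie side by side in 4 clusters, HOXA to HOXD, and every row of the count table whose symbol is HOX followed by a cluster letter and a paralogue number was taken, which gave 33 of 27037 genes: 8 of HOXA, 7 of HOXB, 9 of HOXC and 9 of HOXD. The rule used names only and no measured value, although the HOX genes were chosen with earlier results of these data known. Another 6 HOXA and HOXB genes of the gene models were not analysed here. RNA was sequenced from SK-N-BE(2)C, an established MYCN-amplified human neuroblastoma line of the adrenergic type, in 4 groups of 4 replicates. Cells received the vehicle DMSO alone, all-trans retinoic acid at 10 µM (RA), the CDK4/6 inhibitor palbociclib at 1 µM (PB), or both together at those doses (PB+RA), each for 5 days. All values therefore come from 1 cell line, in which the replicates were described as passages plated as independent experiments.

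HOX proteins are transcription factors that give cells along the head-to-tail axis their regional identity. Within a cluster the genes are numbered in the order in which they lie, and the order on the chromosome matches the order of expression along the body: low numbers (1 to 3, called anterior here) reach into the hindbrain, central numbers (4 to 8) mark neck and upper trunk, and high numbers (9 to 13, posterior) mark lower trunk, tail and limb. Genes of the same number in different clusters descend from a single ancestral gene and are called paralogues. Retinoic acid is a classical inducer of anterior HOX genes, acting through nuclear receptors that bind a direct repeat of a short core, and Polycomb proteins keep silent clusters closed. Trunk neural crest, the origin of sympathetic neurons and of neuroblastoma, carries a code of central and posterior HOX genes.

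The retinoid receptor element was searched for as a pair of cores, each spelled AGGTCA, or the variant GGGTCA, or the variant AGTTCA, or the variant GGTTCA, in the same orientation and 5 bases apart, on both strands of each cluster and 20 kb either side (GRCh37 genome, which is hg19). The matches inside gene models of HOX genes are shown because retinoid receptors are the target of the RA treatment, and capitals mark the cores.
Within the HOXA3 gene model, chr7:27153143-27153159, minus strand: GGTTCAagaagAGTTCA
Within the HOXB3 gene model, chr17:46632792-46632808, minus strand: GGTTCAagaagAGTTCA
Within the HOXD3 gene model, 14363 bases past the HOXD4 start, chr2:177030641-177030657, plus strand: GGTTCAagcagAGTTCA
The HOXA3 and HOXB3 matches are the same 17 letters, and all 3 matches shown have GGTTCA as the leading and AGTTCA as the trailing core. The HOXA window, flanks included, held 3 matches in 147.1 kb, or 20.4 per Mb against 2.14 per Mb over its whole chromosome. The HOXB window held 2 (8.33 per Mb against 2.4) and the HOXD window 1 (7.24 against 2.0), whereas the HOXC window of 157.2 kb held 0. In HOXA and HOXB the matches not shown lay in the flanks, outside the clusters, so these rates do not describe the clusters alone. For the same cores 2 bases apart, the other common spacing of retinoid elements, all 4 windows lay below their chromosomes, with 34 per Mb in HOXA against 41.6, 37.5 in HOXB against 67.4, 7.24 in HOXD against 33.1 and 0 in HOXC against 40.3. A match of letters is a description and is not evidence of binding.

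Promoter windows of 300 bases were available from RefSeq (build GRCh38.p14) for 16 of the 33 genes. None of these windows held the retinoid pair, which 0.0883% of 35116 promoters did. After these windows had been read, the letters CCAAT, the core of the NF-Y binding site, were counted on either strand in the 250 bases before each start, and 13 of the 16 genes had a match in at least 1 listed promoter, against 32% of all promoters. By window, which is the unit of the 32%, the share was 13 of 22, since HOXA3 has several listed starts. The window shared by HOXC4 and HOXC5 is counted once for each gene. Because the letters were chosen from these same windows, the shares are a description and no test of enrichment. The stretches below are those of HOXD1 and HOXD4, which departed from the sum of both agents in opposite directions, and of HOXC4, whose listed start is shared with HOXC5. Capitals mark CCAAT read on the opposite strand, where it appears as ATTGG.
HOXD1, chr2:176188418-176188667, plus strand: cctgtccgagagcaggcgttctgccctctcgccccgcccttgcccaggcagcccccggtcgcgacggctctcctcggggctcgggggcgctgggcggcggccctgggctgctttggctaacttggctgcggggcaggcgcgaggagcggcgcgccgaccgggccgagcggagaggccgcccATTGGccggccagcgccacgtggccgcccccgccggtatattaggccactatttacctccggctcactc
HOXD4, chr2:176151300-176151549, plus strand: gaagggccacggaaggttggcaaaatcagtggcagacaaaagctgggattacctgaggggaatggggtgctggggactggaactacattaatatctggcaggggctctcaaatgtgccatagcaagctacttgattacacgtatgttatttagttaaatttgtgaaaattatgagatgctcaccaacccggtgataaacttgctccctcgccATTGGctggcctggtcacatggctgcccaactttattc
HOXC4 and HOXC5, chr12:54016638-54016887, plus strand: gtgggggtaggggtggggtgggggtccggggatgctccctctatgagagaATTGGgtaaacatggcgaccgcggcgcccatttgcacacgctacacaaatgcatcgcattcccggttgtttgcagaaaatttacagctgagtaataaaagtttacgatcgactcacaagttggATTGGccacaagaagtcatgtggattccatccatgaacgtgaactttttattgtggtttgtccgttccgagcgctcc
The match began 69 bases before the start of HOXD1 and 38 before that of HOXD4. The HOXD1 stretch was 74.8% G or C and the HOXD4 stretch 47.6%.

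SK-N-BE(2)C cells expressed HOXC and HOXD, and HOXA and HOXB were close to silent. Of the 121562 reads counted over the 33 genes in the 16 samples, HOXC took 75.8% and HOXD 24%, while HOXA held 184 reads (0.151%) and HOXB 86 (0.0707%). On the scale of CPM (reads of a gene per 1 M counted reads of the sample), the summed HOXC level was 188 ± 5.87 in DMSO, 259 ± 4.74 with RA, 214 ± 11 with PB and 296 ± 30.9 with PB+RA (mean ± SD, n = 4 in every group here and below). The summed HOXD level was 50.8 ± 0.894 CPM in DMSO, 101 ± 3.25 with RA, 54.6 ± 4.78 with PB and 97.5 ± 1.92 with PB+RA. All RA and PB+RA samples of HOXD lay above all its DMSO and PB samples, and the PB range overlapped the DMSO range as the PB+RA range overlapped that of RA. HOXC has no anterior member, and its expressed genes ran from HOXC4 to HOXC11.

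**Figure D1:**
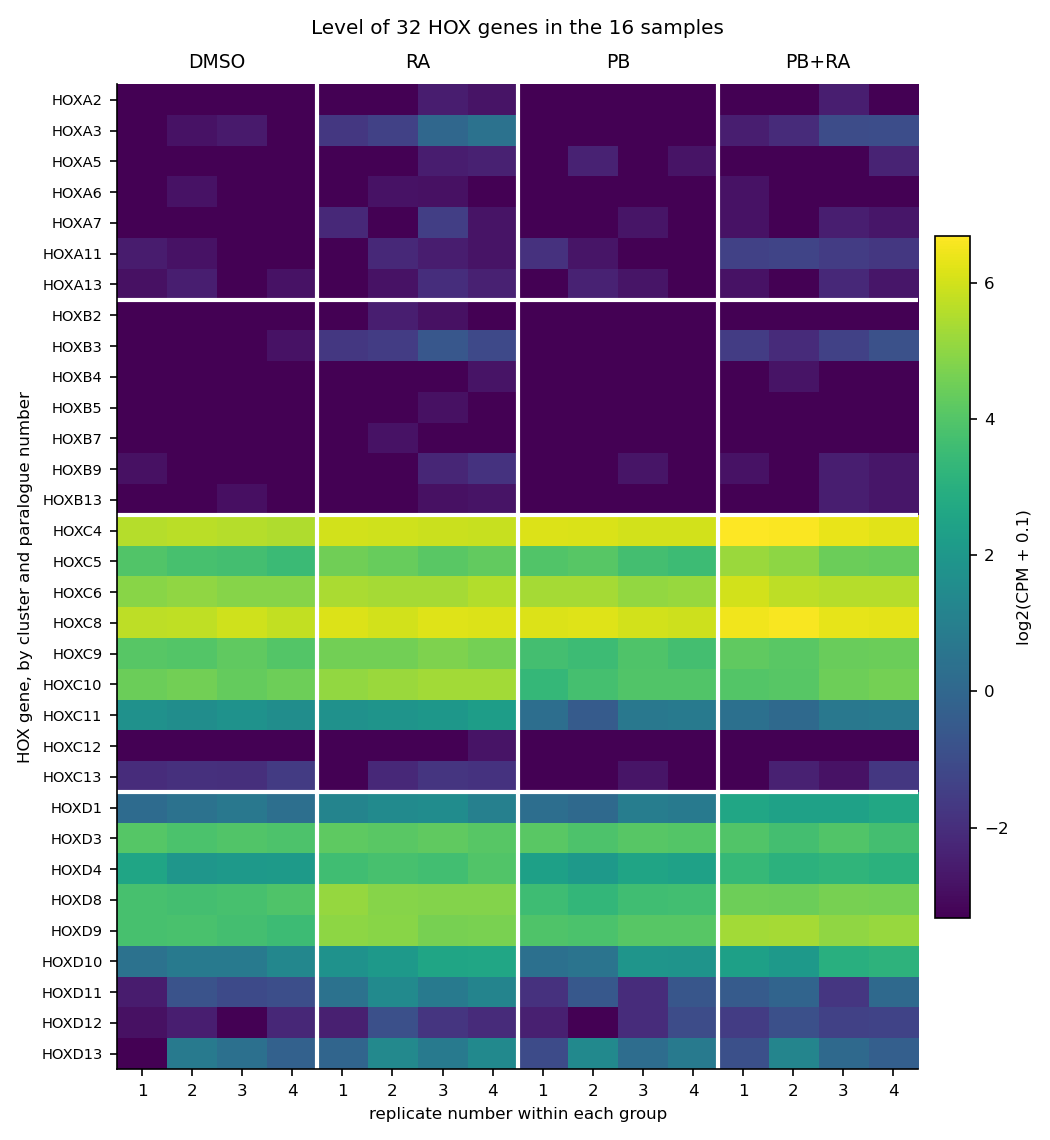
Level of 32 of the 33 HOX genes (rows, by cluster and paralogue number) in each of the 16 samples (columns, replicates 1 to 4 of each group), as log2 of CPM plus 0.1. HOXC4 to HOXC11 and HOXD1 to HOXD13 without HOXD12 carry the signal, and HOXA3 and HOXB3 appear in the RA and PB+RA columns.

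Per kilobase of merged exon, which allows genes to be compared, the most abundant HOX transcript in DMSO was HOXC8 at 22.9 ± 2 CPM per kb, followed by HOXC4 at 17.2 ± 0.734. The next in order, HOXC9 at 10.2 ± 0.805, HOXC10 at 9.12 ± 0.597, HOXC6 at 8.79 ± 0.46 and HOXC5 at 8.25 ± 1.11 CPM per kb, each differed from its neighbour by less than the sum of their SDs. HOXD9 (6.92 ± 0.549) and HOXD8 (5.24 ± 0.378) led the HOXD cluster, before HOXD3 (4.13 ± 0.239) and HOXD4 (3.96 ± 0.801), which did not differ beyond their spread. HOXC11, HOXD10 and HOXD1 stood at 0.956, 0.69 and 0.659 CPM per kb, and HOXD13 and HOXD11 at 0.373 and 0.161. With the length of the canonical transcript in place of the merged exons, HOXC4 (27.8 CPM per kb) stood above HOXC8 (22.9), HOXC6 (18.4) came next before HOXC9 (11.5), and HOXD3 (6.24) stood above HOXD8 (5.26), so the order of these genes rests on the length used.

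The counts of neighbouring HOX genes are not fully separate. In the gene models HOXC6 shares exon sequence on the same strand with both HOXC4 and HOXC9. HOXD10 and HOXD11 also share such sequence, as do HOXB3 and HOXB4. HOXC5 and HOXC10 each share exon sequence with a further protein-coding gene model on that strand. On the opposite strand, the long noncoding RNA HAGLR (24.1 CPM over all samples) overlaps exons of HOXD1 (2.67 CPM) and HOXD3, and HOXD-AS2 (10.6 CPM) overlaps exons of HOXD3 and HOXD8. Libraries were strand-specific but the strand setting of the counting was not stated, so the counts of these genes are uncertain to that extent.

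A differential test was made for the 15 genes above the filter on low counts, 7 of HOXC (HOXC4, HOXC5, HOXC6, HOXC8, HOXC9, HOXC10 and HOXC11) and 8 of HOXD (HOXD1, HOXD3, HOXD4, HOXD8, HOXD9, HOXD10, HOXD11 and HOXD13), and all 15 would have passed that filter with any single group left out. The other 18, all of HOXA and HOXB with HOXC12, HOXC13 and HOXD12, are described by their counts. To be called higher or lower, a gene needed an absolute log2 fold change above 0.5 and an adjusted p under 0.05 over the 15415 genes tested. Unless another test is named, every adjusted p below is a Benjamini-Hochberg value from the quasi-likelihood test of edgeR.

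Total counts ran from 19.5 to 31.6 M per sample, so a count of 0 allows a level of up to 0.0949 CPM in the deepest and 0.154 CPM in the shallowest sample. Replicates 1 and 2 stood apart from replicates 3 and 4 in all 4 groups, and values within these sets are given beside results whose call changed in one of them. The adrenergic markers PHOX2A, GATA2, GATA3, HAND2, ISL1, TH, DBH, MYCN, CHGA and SYP were present in every sample, at 39.8 CPM or more. Of the markers of mesenchymal or other cells, SOX10, PECAM1 and PTPRC stayed at or below 0.285 CPM. SOX10 had 1 count in all 16 samples. Others of that list were present in every sample. VIM ranged from 470 to 1140 CPM, FN1 from 106 to 932, TWIST1 from 46.3 to 123 and COL1A1 from 15.6 to 72. The 15 measured markers of that list summed to 1047 to 1326 CPM in DMSO and 1846 to 2315 with RA. With PB the sum was 813 to 974 CPM, and with PB+RA 1057 to 1542. Of the 11 tested, 7 were called higher in RA and 0 lower, where 10.8% and 2.54% of all tested genes were. Their sum was thus higher in RA, as several HOX genes were, and their part in the HOX results was not tested. In such bulk samples fewer cells with a transcript and less of it per cell cannot be told apart.

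The first question was what the retinoid does by itself. Set against DMSO, RA raised HOX genes of both expressed clusters and lowered none: 9 of the 15 tested were called higher, or 60%, where 10.8% of all tested genes were, and 0 were called lower, where 2.54% were. In HOXD 6 of 8 genes were called and the median log2 fold change was 1.11, and in HOXC 3 of 7 were called and the median was 0.48, against 0.01 over all genes. All 15 log2 fold changes were positive, from 0.22 for HOXD3 to 2.49 for HOXD11. In 13 of the 15 genes the 4 RA samples all lay above the 4 DMSO samples, where 37.2% of all genes had groups that did not overlap in either direction.

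HOXD4, a gene of hindbrain and neck identity with a known retinoid-responsive neural enhancer, measured 5.82, 3.75, 4.11 and 4.3 CPM in DMSO replicates 1 to 4 and 12.3, 13.5, 12.5 and 15.5 CPM in RA. The groups did not overlap, and the fold was 2.97 (log2 1.57 ± 0.14 SE, adjusted p = 5.27e-07). HOXD8, a central gene of the trunk, measured 13.7, 12.8, 13.5 and 15.1 CPM in DMSO and 34, 28.8, 28.6 and 28.6 in RA, and rose 2.16-fold (adjusted p = 1.84e-07). HOXD9, its posterior neighbour, measured 13.6, 13.8, 12.9 and 11.5 CPM in DMSO and 31.7, 30.2, 24.9 and 25.1 in RA, with RA replicates 1 and 2 above replicates 3 and 4, and rose 2.15-fold (adjusted p = 8.76e-07). In each of these 3 genes the lowest RA sample was above the highest DMSO sample.

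HOXD1, the most anterior gene of the cluster, measured 1.03, 1.26, 1.52 and 1.16 CPM in DMSO and 2.21, 2.63, 2.86 and 1.98 in RA, a 1.93-fold rise (log2 0.95 ± 0.20, adjusted p = 0.00158). HOXD10, a determinant of lumbar motor neurons, measured 1.28, 1.59, 1.64 and 2.36 CPM in DMSO and 3.32, 4.12, 5.73 and 5.9 in RA, and rose 2.76-fold (log2 1.46 ± 0.36, adjusted p = 0.00523). HOXD11, a limb and tail gene of low level, ranged from 0.0709 to 0.489 CPM in DMSO and from 1.27 to 2.67 in RA, a log2 fold change of 2.49 ± 0.48 (adjusted p = 0.00084), the largest of the 15. HOXD3, which lies between the rising HOXD1 and HOXD4, was not called, with 15.3 ± 0.885 CPM in DMSO and 17.9 ± 0.968 in RA (log2 0.22, 95% interval 0.03 to 0.41, adjusted p = 0.058).

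Of HOXC, the rising genes were a central and a pair of posterior ones. HOXC10, known for lumbar identity, measured 21.4, 23.2, 19.8 and 22 CPM in DMSO and 33, 36.3, 39.3 and 38.8 in RA, a 1.7-fold rise (log2 0.76 ± 0.14, adjusted p = 0.000499). HOXC9, which sets thoracic identity in motor neurons and has been linked to retinoid-driven differentiation of neuroblastoma cells, measured 16.9, 15.8, 18.8 and 16.1 CPM in DMSO and 23.7, 23.7, 26.9 and 24.3 in RA (log2 0.53 ± 0.09, adjusted p = 0.000449). HOXC5 measured 15.5, 13.5, 13 and 11.2 CPM in DMSO and 22.6, 20.7, 17.5 and 19.4 in RA (log2 0.58 ± 0.17, adjusted p = 0.0162). The RA samples of all 3 genes lay above those of DMSO, but HOXC9 and HOXC5 stood close to the thresholds and lost their call without certain single libraries: HOXC9 without DMSO replicate 2 or RA replicate 3 (log2 0.49 and 0.46), and HOXC5 without DMSO replicate 4 or RA replicate 1 (adjusted p = 0.0511 and 0.0524). HOXC9 also fell under the fold minimum with no filter on low counts and within replicates 3 and 4 (log2 0.49 in each), and with the GC and length offset, with or without the replicate block (0.46 in each).

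The abundant central genes stayed below the fold minimum in RA, HOXC4 at a log2 of 0.35 (adjusted p = 0.00583), HOXC6 at 0.48 (adjusted p = 0.00102) and HOXC8 at 0.33 (adjusted p = 0.00499). Without DMSO replicate 2 HOXC6 reached 0.51 and was called. HOXC11 was not called (log2 0.27, 95% interval -0.17 to 0.72, adjusted p = 0.321). Within replicates 1 and 2 the tested genes called higher in RA were the same as in all samples. Within replicates 3 and 4 they differed by the loss of HOXC9 (log2 0.49) and the gain of HOXC6 (0.51) and HOXD13 (0.98).

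**Figure D2:**
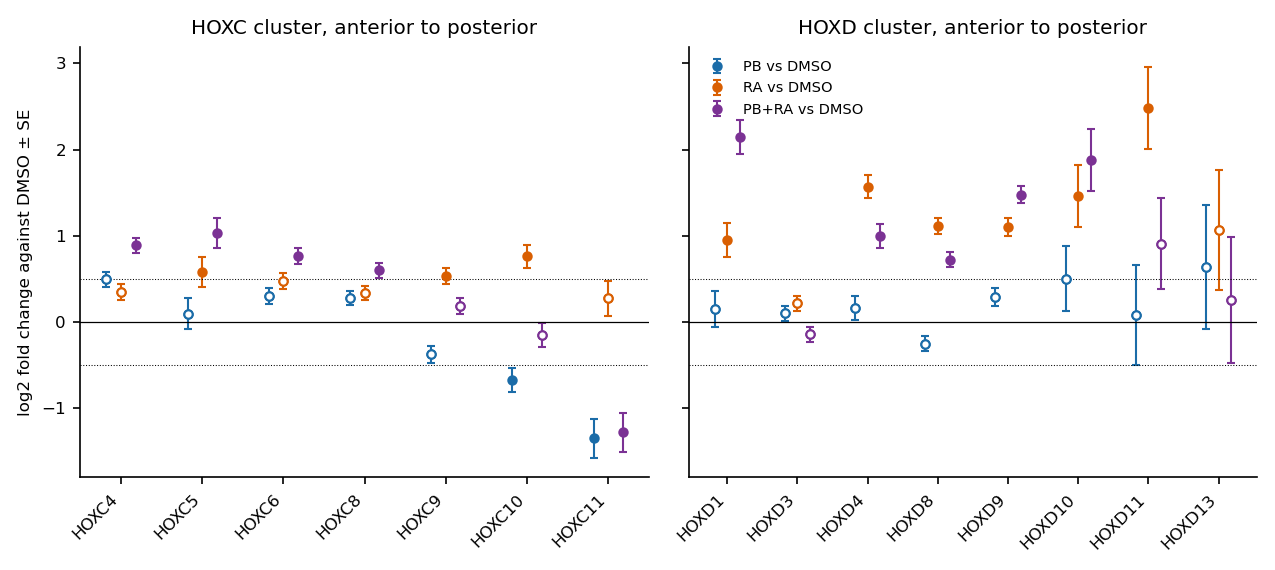
Log2 fold change against DMSO with its standard error (y axis) for the tested genes of HOXC and HOXD in anterior to posterior order (x axis), for PB, RA and PB+RA. Filled points are called genes, and dotted lines mark the fold minimum of 0.5. Along HOXC the PB and PB+RA points step down from positive values at HOXC4 to -1.35 and -1.28 at HOXC11, while the RA points stay above 0.

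In the near-silent HOXA and HOXB clusters, reads appeared with RA, mostly from the group 3 paralogues HOXA3 and HOXB3. These are anterior genes of the hindbrain and pharyngeal region. Their gene models hold the 2 identical letter matches shown above, and HOXD3, which holds the other match shown, was not called in RA. The HOX starts nearest to the 2 matches are those of HOXA2 (match at -10854 bases) and HOXB2 (match at -10337 bases). HOXA2 had 5 reads and HOXB2 had 3 over all 16 samples. Any part of the matches in the reads was not tested. HOXA as a whole had 11 counts in the 4 DMSO samples, 99 with RA, 12 with PB and 62 with PB+RA, and HOXB had 3, 49, 1 and 33. HOXA3 had 0, 1, 2 and 0 counts in DMSO, 5, 7, 24 and 28 in RA, 0 in every PB sample, and 2, 3, 10 and 8 in PB+RA. Its RA samples all lay above DMSO in CPM, more so in replicates 3 and 4, and the summed counts gave a 24-fold ratio with a 95% exact counting interval of 7.86 to 120, which covers counting error only.

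HOXB3 had 0, 0, 0 and 1 counts in DMSO, 5, 6, 15 and 8 in RA, 0 in every PB sample, and 6, 3, 7 and 9 in PB+RA. All RA and PB+RA samples held reads that DMSO and PB, but for 1 count, did not, and the ratio of RA to DMSO was 38.3 with an interval of 6.42 to 1556. Of the 18 genes below the filter, HOXA3 and HOXB3 were those with all RA samples above all DMSO samples, a separation that 2.33% of all genes below the filter showed. A two-sided exact permutation test over samples gave p = 0.0286 for each, the smallest value that 4 against 4 samples allow, and an adjusted p of 0.0613 over 15 such tests, made for the genes below the filter with at least 20 reads in all.

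For PB+RA the separation from DMSO held for HOXA3, HOXB3, HOXA11 and HOXD12, where 4.84% of all genes below the filter showed it, and for PB it held for 0 of the 18, where 2.91% showed it. Against PB, HOXA3 was at least 7.26-fold higher and HOXB3 at least 7.89-fold higher, taken against the 3 counts that 0 counts over the 4 PB samples allow. HOXA11, a posterior gene of limb and uterus, had 2, 1, 0 and 0 counts in DMSO, 0, 3, 2 and 1 in RA, 4, 1, 0 and 0 in PB, and 7, 7, 6 and 4 in PB+RA, so that of the 3 treatments PB+RA alone had all samples above DMSO. It reached the minimum of 20 reads only through its PB+RA samples, so no test of it is given. HOXD12 had 6 counts in DMSO, 21 with RA, 14 with PB and 29 with PB+RA.

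The other HOXA and HOXB genes gave 1 to 19 reads each over all 16 samples. HOXA7 had 0 reads in DMSO, 11 in RA and 4 in PB+RA, HOXB9 had 1, 7 and 4, and HOXB5 and HOXB7 had 1 read each in all. In RA all 8 HOXA and all 7 HOXB genes that have a row in the count table had at least 1 read, against 4 and 3 in DMSO. The gene models hold 11 HOXA and 10 HOXB genes, so this does not describe the whole clusters. Every gene of the count table has a read in some sample, and HOXB5 and HOXB7, for instance, have theirs in RA only. The RA count is thus in part set by how a gene enters the table. At these depths a read or a few per gene set no order among the HOXA and HOXB genes. Over all 27037 genes with no filter, the same fit called HOXA3 and HOXB3 higher in RA (adjusted p = 0.00115 and 0.000331). Of those 27037 genes, which include all rows below the filter, 1515 were called higher and 7.36% were called in either direction. HOXA7 was also called, but it had 3, 0, 7 and 1 counts in RA replicates 1 to 4. RA replicate 2 thus equalled DMSO and most reads came from 1 library, so no test of HOXA7 is given.

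**Figure D3:**
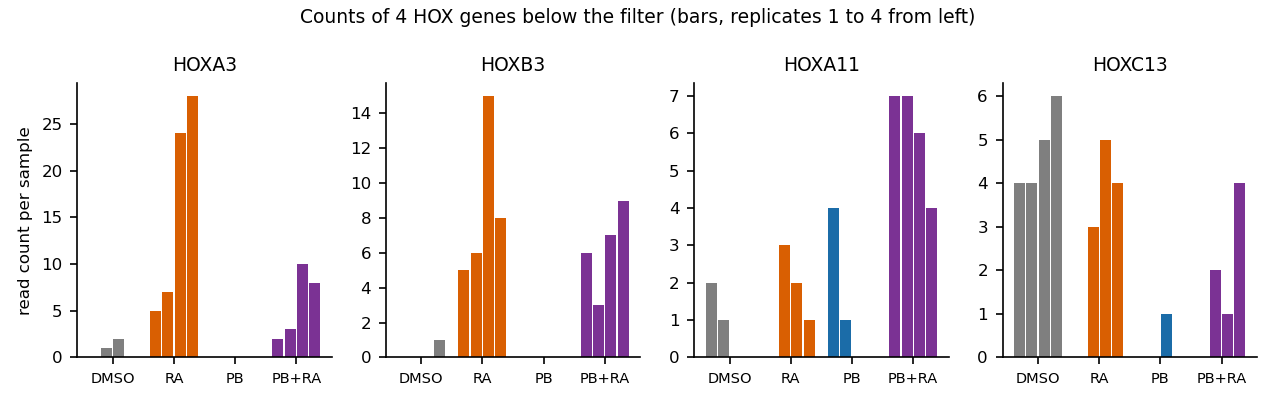
Read counts in each sample (bars, replicates 1 to 4 of each group from left) for 4 HOX genes below the filter on low counts, each panel with its own y axis from 0. HOXA3 and HOXB3 hold reads in all RA and PB+RA samples and 0 in all PB samples, HOXA11 is highest in PB+RA, and HOXC13 has 4 to 6 counts in each DMSO sample and 1 count in all of PB.

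The next question was what blocking CDK4 and CDK6 does by itself. Set against DMSO, PB lowered the posterior end of HOXC and raised no HOX gene past the thresholds: 2 of 15 genes were called lower, HOXC10 and HOXC11, or 13.3%, where 11.3% of all tested genes were, and 0 were called higher, where 16.9% were. The count as such is near the background, and it is the position of the falling genes within the cluster that is described here. The groups did not overlap for 7 of the 15 genes, 3 higher and 4 lower, or 46.7%, where 49.9% of all genes had groups that did not overlap. The median log2 fold change was 0.10 over HOXC and 0.15 over HOXD, against 0.03 over all genes.

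HOXC11, which marks lumbar and sacral levels, measured 3.26, 2.93, 3.35 and 2.94 CPM in DMSO and 1.12, 0.629, 1.52 and 1.63 in PB. The groups did not overlap, and the level in PB was 0.393 of that in DMSO (log2 -1.35 ± 0.23, adjusted p = 9.92e-05). HOXC10 measured 21.4, 23.2, 19.8 and 22 CPM in DMSO and 9.95, 13.3, 15.4 and 15.5 in PB, again without overlap, at 0.628 of the DMSO level (log2 -0.67 ± 0.14, adjusted p = 0.000769). Within replicates 1 and 2 its log2 fold change was -0.95, and within replicates 3 and 4 it was -0.47, under the fold minimum. HOXC11 was called in both sets, at -1.82 and -1.04.

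HOXC9 measured 12.8, 11.4, 15.3 and 12.7 CPM in PB, all below DMSO, with a log2 fold change of -0.38 (adjusted p = 0.00374), under the fold minimum. Beyond HOXC11, HOXC13, a gene of hair and nail at the very end of the cluster, had 4, 4, 5 and 6 counts in DMSO and 0, 0, 1 and 0 in PB, with RA at 0, 3, 5 and 4 and PB+RA at 0, 2, 1 and 4. All its PB samples lay below DMSO, with 1 count against 19 and a ratio of 15-fold lower (95% exact counting interval 2.39 to 624; exact permutation p = 0.0286, adjusted 0.0613). Of all genes below the filter with a count in every DMSO sample, 6.3% had all PB samples below DMSO. HOXC12 had 1 read in all.

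At the anterior end of the cluster, HOXC4 measured 48, 49.7, 47.5 and 44.8 CPM in DMSO and 71.2, 68.8, 63.6 and 64.4 in PB, without overlap. Its log2 fold change of 0.50 (0.496 before rounding, adjusted p = 0.000159) lay just under the fold minimum, and it was called within replicates 1 and 2 (0.51) and also in all samples with a filter on a mean of 1 CPM. For HOXC6 the log2 difference was 0.30 (adjusted p = 0.0129), for HOXC8 0.28 (adjusted p = 0.00877) and for HOXC5 0.10 (adjusted p = 0.672).

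In order along the cluster the PB log2 fold changes were thus 0.50 for HOXC4, 0.10 for HOXC5, 0.30 for HOXC6, 0.28 for HOXC8, -0.38 for HOXC9, -0.67 for HOXC10 and -1.35 for HOXC11, positive up to group 8 and negative from group 9. Spearman's rho of fold change on paralogue number was -0.89 over these 7 genes, and -0.86 and -0.89 within the 2 sets of replicates. It is a description over neighbouring genes that share libraries and, in part, exons. In RA the same order gave a rho of -0.11. Summed over position, the central HOXC genes went from 146 ± 5.51 CPM in DMSO to 186 ± 14.6 in PB, and the posterior ones from 41.8 ± 0.368 to 27.8 ± 3.91, with no overlap of the samples in either.

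HOXD showed no such order under PB. None of its 8 genes was called, and rho was 0.40. HOXD9 measured 15.2, 14.4, 16.7 and 17 CPM in PB and HOXD8 measured 11.8, 9.77, 12.2 and 12.5. These neighbouring genes differed from DMSO by 0.29 (adjusted p = 0.0244) and -0.25 (adjusted p = 0.028) on the log2 scale, in opposite directions and under the fold minimum. HOXD10 differed between the sets of replicates, with 1.2 and 1.35 CPM in PB replicates 1 and 2 and 3.66 and 3.49 in replicates 3 and 4, and was called higher within replicates 3 and 4 (log2 0.81). HOXD13 ranged from 0 to 1.63 CPM in DMSO and from 0.386 to 2.56 in PB, and HOXD11 from 0.0709 to 0.489 and from 0.143 to 0.58, so that their intervals, -0.93 to 2.21 and -1.19 to 1.35, leave the direction unresolved.

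The combined treatment was then set against DMSO. HOXC split in 2: the central genes HOXC4, HOXC5, HOXC6 and HOXC8 rose and HOXC11 fell, and 5 HOXD genes rose with HOXD1 foremost. In all 9 of 15 genes were called higher, or 60%, where 24% of all tested genes were, and 1 was called lower, or 6.67%, where 17.9% were, and in either direction 41.9% of all genes were. The median log2 fold change was 0.60 in HOXC and 0.96 in HOXD, against 0.04 over all genes. The groups did not overlap for 10 of the 15 genes, where 58.2% of all genes had groups that did not overlap.

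HOXD1, whose mouse counterpart acts in pain-sensing neurons, measured 6, 5.14, 5.17 and 6.3 CPM in PB+RA, against 1.03 to 1.52 in DMSO, 1.98 to 2.86 in RA and 1.12, 0.967, 1.81 and 1.63 in PB. Its PB+RA samples lay above all other samples, with a fold of 4.43 over DMSO (log2 2.15 ± 0.19, adjusted p = 5.03e-08), 2.29 over RA (adjusted p = 3.79e-05) and 4 over PB (adjusted p = 1.03e-06). HOXD4 measured 10.3, 8.59, 9.37 and 8.35 CPM in PB+RA and 5.02, 4.21, 5.7 and 5.16 in PB, so that PB+RA lay above DMSO and PB and below RA in all samples. It stood 2-fold above DMSO (adjusted p = 6.94e-06) and at 0.673 of RA (log2 -0.57 ± 0.13, adjusted p = 0.00159), a call against RA that was lost without RA replicate 4 (log2 -0.48) and within replicates 1 and 2 (-0.47, adjusted p = 0.0568).

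HOXD9 measured 39.5, 40, 32.4 and 35.3 CPM in PB+RA, above all samples of the other groups, at 2.79-fold over DMSO (adjusted p = 1.62e-09), and its log2 difference from RA of 0.37 (adjusted p = 0.00385) was under the fold minimum. HOXD8 measured 22.3, 21.4, 24.6 and 24.4 CPM, between DMSO and RA, at 1.65-fold over DMSO (adjusted p = 1.78e-06). HOXD10 measured 5.01, 4.03, 7.92 and 8.81 CPM, with replicates 3 and 4 above replicates 1 and 2 as in PB, and rose 3.67-fold (log2 1.88 ± 0.36, adjusted p = 0.00024). Against RA, HOXD8 stood lower in PB+RA in all samples (log2 -0.39, adjusted p = 0.00112, under the fold minimum) and HOXD10 was not called (log2 0.41, 95% interval -0.32 to 1.14). HOXD8 was called lower than in RA within replicates 1 and 2 (log2 -0.54) and not within replicates 3 and 4 (-0.23), and HOXD10 higher within replicates 3 and 4 (0.51) and not within replicates 1 and 2 (0.26).

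HOXD11 ranged from 0.202 to 0.974 CPM in PB+RA against 1.27 to 2.67 in RA, with no overlap, and was called lower than in RA (log2 -1.58 ± 0.45, adjusted p = 0.00705; -1.44 and not called within replicates 1 and 2, adjusted p = 0.0661) and not called against DMSO (log2 0.91, 95% interval -0.24 to 2.06). Without PB+RA replicate 3 it was called against DMSO (log2 1.19, adjusted p = 0.0447), as it was with the replicate number as a block (log2 0.90, adjusted p = 0.0362). HOXD13, from 0.86 to 2.61 CPM in RA and from 0.437 to 2.26 in PB+RA, was not called in any comparison over all 16 samples without that block. With it, HOXD13 was higher in RA than in DMSO (log2 1.12, adjusted p = 0.0109) and lower in PB+RA than in RA (log2 -0.85, adjusted p = 0.0368). Within replicates 3 and 4 and without the block, it was also called for RA against DMSO (log2 0.98, adjusted p = 0.0183), for PB+RA against RA (log2 -1.28, adjusted p = 0.00468) and for the interaction of both agents, which is taken up further on (-1.66, adjusted p = 0.0396).

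Of HOXC, HOXC4 measured 103, 99.5, 80.8 and 74.6 CPM in PB+RA, above the 57.8 to 63.8 of RA and the 63.6 to 71.2 of PB, at 1.85-fold over DMSO (log2 0.89 ± 0.09, adjusted p = 1.53e-07). HOXC5 measured 36.7, 31.5, 21.8 and 20.7 CPM (2.05-fold, adjusted p = 6.98e-05), and HOXC6 measured 64.9, 51.9, 47.3 and 47.2 CPM (1.71-fold, adjusted p = 1.89e-06). HOXC8, a gene of lower neck and upper chest levels, measured 51.1, 53.6, 62.3 and 54.2 CPM in DMSO, 71.1, 64.8, 72.5 and 71.9 with RA, 70.5, 72.9, 64.2 and 60.7 with PB and 89.5, 95.6, 79.7 and 76.6 with PB+RA (1.51-fold over DMSO, adjusted p = 6.65e-06). In each of these 4 genes PB+RA replicates 1 and 2 stood above replicates 3 and 4, and all PB+RA samples stood above all DMSO samples. Within replicates 3 and 4 alone HOXC8 fell under the fold minimum (log2 0.35).

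HOXC6 measured 29.9, 32.8, 29.4 and 29.5 CPM in DMSO, 42.4, 40.8, 40.8 and 46.3 in RA and 40.4, 40.4, 33.7 and 35.3 in PB. HOXC4 measured 63.8, 62.3, 59.4 and 57.8 CPM in RA, and HOXC5 measured 15.5, 16.9, 12.9 and 11.5 in PB. All RA and all PB samples of HOXC4 and HOXC6 thus stood above DMSO, by less than the fold minimum, and PB+RA stood past it. For HOXC8 the PB samples overlapped DMSO, and its log2 fold change in PB was 0.44 within replicates 1 and 2 (adjusted p = 0.000497) and 0.06 within replicates 3 and 4 (adjusted p = 0.507).

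**Figure D4:**
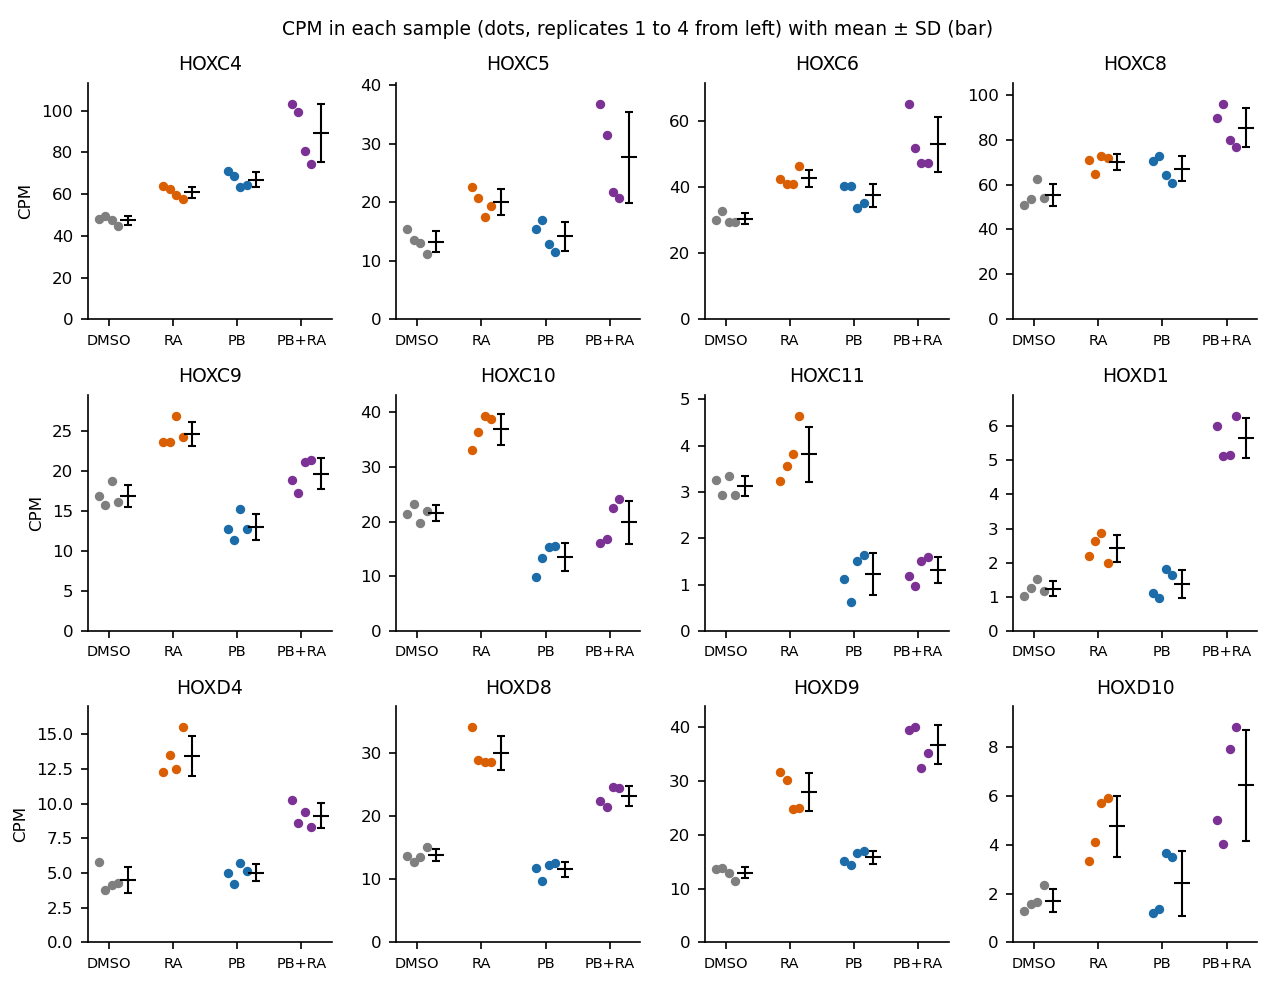
CPM of 12 HOXC and HOXD genes in each sample (dots, replicates 1 to 4 of each group from left), with the mean and SD of the group (bar), each panel with its own y axis from 0. HOXC4 to HOXC8 are highest in PB+RA, HOXC10 and HOXC11 are lower in PB and PB+RA than in RA, and HOXD1 in PB+RA lies at 5.14 to 6.3 CPM, above all other samples.

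The posterior genes HOXC10 and HOXC11 stood lower in PB+RA than in RA. HOXC11 measured 3.24, 3.56, 3.81 and 4.64 CPM in RA and 1.19, 0.974, 1.5 and 1.59 in PB+RA, at 0.411 of DMSO (adjusted p = 8.95e-05) and 0.34 of RA (log2 -1.56 ± 0.22, adjusted p = 1.99e-05), and against PB its log2 difference was 0.07 (95% interval -0.47 to 0.60). HOXC10 measured 16.1, 16.8, 22.4 and 24.1 CPM in PB+RA, with replicates 1 and 2 below all DMSO samples and replicates 3 and 4 above their median. It was not called against DMSO (log2 -0.15, adjusted p = 0.346), was lower than in RA (log2 -0.91, adjusted p = 3.44e-05) and higher than in PB (log2 0.52, adjusted p = 0.00899), the last of which was lost without PB replicate 1, PB+RA replicate 3 or PB+RA replicate 4 (log2 0.41, 0.45 and 0.44), within replicates 1 and 2 (0.49) and with the GC and length offset, with or without the replicate block (0.49 in each).

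HOXC9 measured 18.9, 17.3, 21.1 and 21.4 CPM in PB+RA, higher than in PB (log2 0.56, adjusted p = 0.000268) and not called against DMSO or RA (log2 0.19 and -0.34). Along the cluster the PB+RA log2 fold changes against DMSO fell from 0.89 at HOXC4 and 1.03 at HOXC5 through 0.19 at HOXC9 to -1.28 at HOXC11, with rho of -0.96 over 7 genes in all samples and in each set of replicates. Against RA, which shares the PB+RA samples, the values fell in strict order from 0.54 at HOXC4 to -1.56 at HOXC11, with rho of -1, and again in each set. In HOXD the rho of PB+RA on position was -0.21 over 8 genes.

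The contribution of either drug on top of the other was read from PB+RA against PB and against RA. With PB as the base, 8 of 15 genes were higher (53.3%, where 9.02% of all genes were) and 0 were lower (7.27%): HOXC5, HOXC9, HOXC10, HOXD1, HOXD4, HOXD8, HOXD9 and HOXD10, with log2 differences from 0.52 to 2.00. The groups did not overlap for 11 of the 15, all higher, where 31.4% of all genes had groups that did not overlap. All 8 were also called higher for RA against DMSO, a comparison with which this one shares no sample, where HOXD11 was called too. Against RA, 2 genes were higher (13.3%, where 14.9% were), HOXC4 and HOXD1, and 4 were lower (26.7%, where 14.1% were), HOXC10, HOXC11, HOXD4 and HOXD11. The groups did not overlap for 12 of the 15, 5 higher and 7 lower, where 46.7% of all genes had groups that did not overlap. The HOXC4 difference from RA (log2 0.54) went to 0.44 and 0.47 without PB+RA replicate 1 or 2 and to 0.40 within replicates 3 and 4, under the fold minimum. HOXC5 was called higher than in RA within replicates 1 and 2 (log2 0.64), and within that set HOXC4 and HOXC6 were called higher than in PB (0.52 each).

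The interaction, the PB+RA log2 fold change minus the sum of those of PB and RA, asks whether both agents together do what their separate changes add up to. For HOXC the interaction estimates ran from -0.24 for HOXC10 (95% interval -0.67 to 0.19) to 0.35 for HOXC5 (-0.18 to 0.89), and none of the 7 was called. In HOXD 2 genes were called, in opposite directions: HOXD1 above the sum (1.05 ± 0.28, 95% interval 0.44 to 1.66, adjusted p = 0.0373) and HOXD4 below it (-0.73 ± 0.19, interval -1.15 to -0.31, adjusted p = 0.0365). They make 6.67% of the 15 genes in each direction, where 0.415% of all genes were above and 3.02% below, 3.44% in all.

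Both calls lie close to the threshold. HOXD1 lost its call without 10 of the 16 libraries (adjusted p from 0.0521 to 0.0803) and HOXD4 without 12 (adjusted p from 0.0562 to 0.103), and neither was called within replicates 1 and 2 (adjusted p = 0.0617 and 0.528). Within replicates 3 and 4 HOXD1 stood at 0.91 (adjusted p = 0.112) and HOXD4 was called at -0.99 (adjusted p = 0.00431). Both estimates kept their direction in all these fits. HOXD3, between them, was also below the sum (-0.46, adjusted p = 0.0377), under the fold minimum. With the replicate number as a block, HOXD11 (-1.63, adjusted p = 0.039) and HOXD13 (-1.49, adjusted p = 0.0495) were called below the sum as well.

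**Figure D5:**
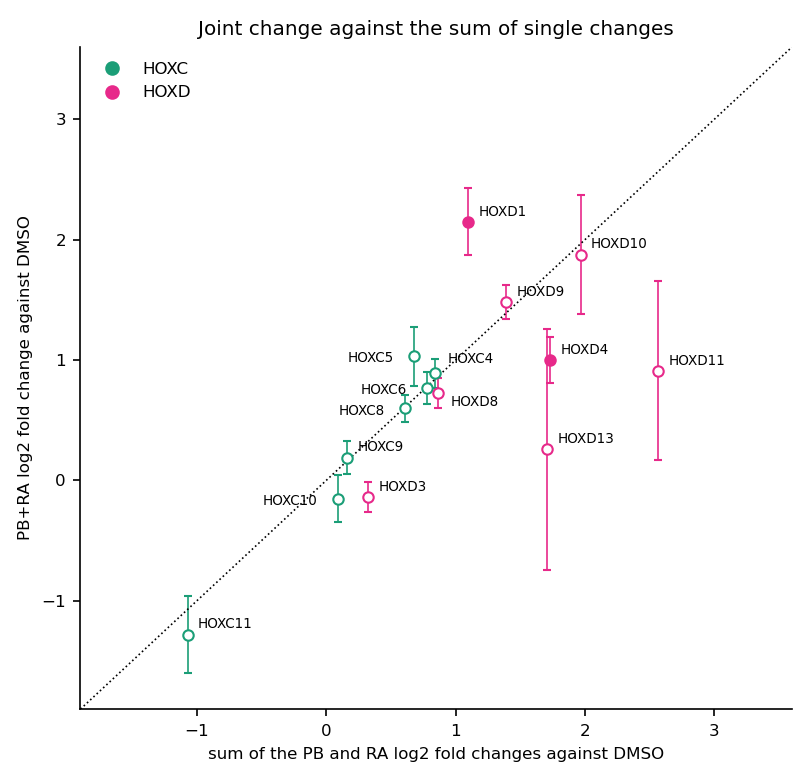
PB+RA log2 fold change against DMSO (y axis) plotted against the sum of the PB and RA log2 fold changes (x axis) for the 15 tested genes. The vertical bars are the standard error of the interaction, the dotted line is equality, and the filled points are HOXD1, 1.05 above the line, and HOXD4, 0.73 below it.

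Neighbouring genes were also compared within each sample as a log2 ratio of their counts, which does not depend on library scaling, in 36 two-sided exact permutation tests over 12 pairs and 3 treatments chosen after the values were seen. The smallest p that 4 against 4 samples allow is 0.0286, which became 0.0792 after adjustment, so no ratio passed 0.05. HOXD4 over HOXD3 stood 1.36 higher in RA and 1.16 higher in PB+RA than in DMSO, and HOXD3 over HOXD1 stood 2.30 lower in PB+RA. HOXC9 over HOXC8, the pair at which the PB changes turned negative, stood 0.66 below DMSO in PB, at a ratio of -2.36 ± 0.26 against -1.71 ± 0.079, and 0.41 below it in PB+RA, but in RA it stood 0.20 above. HOXC11 over HOXC10 stood below DMSO with each agent, by 0.73 in PB, 0.49 in RA and 1.12 in PB+RA. Each of these had the smallest p the test allows.

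HOX proteins bind DNA with TALE cofactors of the PBX, MEIS and PKNOX families. Of 8 such genes tested, RA raised 4 and lowered 0, where 10.8% and 2.54% of all tested genes were called. PB raised 0 and lowered 0 (16.9% and 11.3% of all genes), and PB+RA raised 3 and lowered 1 (24% and 17.9%). MEIS1 stood at 25.9 to 32.8 CPM in DMSO and 57.2 to 76.9 in RA (log2 1.15, adjusted p = 3.76e-05), and at 54.4 to 80.5 in PB+RA (log2 1.15). PBX3 rose by 0.72 in RA and 0.82 in PB+RA on the log2 scale, with 79.2 ± 5.73 CPM in DMSO against 131 ± 12.6 and 143 ± 16.4. PBX4 fell in PB+RA (log2 -1.25, adjusted p = 0.000236), at 0.639 ± 0.143 CPM against 1.48 ± 0.37.

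Of the direct retinoid response genes, 8 of 11 tested rose in RA and 0 fell, and in PB+RA 10 rose and 1 fell, read against the same shares of all genes. CYP26A1, an enzyme that degrades retinoic acid, stood at 0.109 ± 0.0626 CPM with DMSO, at 74.6 ± 24.7 with RA and at 123 ± 75.6 with PB+RA, and CYP26B1 at 1.34 ± 0.637, 153 ± 35.6 and 243 ± 47.4. Under PB 1 of the 11 rose and 1 fell, STRA6, a retinol transporter (log2 0.57), and the receptor gene RXRA (log2 -1.08). Of the 4 tested regulators that act upstream of HOX genes in the embryo, GBX2 rose in RA (log2 2.90) and PB+RA (log2 2.94).

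Of 15 Polycomb repressors tested, PB lowered 3 and raised 0, where 11.3% and 16.9% of all genes were called. EZH2, the enzyme that places the repressive mark on histone H3, stood at 119 to 123 CPM in DMSO, 112 to 116 with RA, 38.7 to 52 with PB and 27.9 to 38.2 with PB+RA (log2 -1.41 in PB and -1.91 in PB+RA), EED fell by 0.82 in PB on the log2 scale and CBX2 by 0.56. RA raised 3 and lowered 0 (JARID2 0.71, PHC2 0.62 and PHC1 0.56), and PB+RA raised 4 and lowered 5, where 24% and 17.9% of all genes were called. Among 14 tested activators of the Trithorax and demethylase kind, PB raised KDM6B, which removes the repressive mark (log2 0.81), and lowered DOT1L (log2 -0.63), RA raised KDM6B alone (0.57), and PB+RA raised 1 and lowered 3, counts near or below what the shares of all genes give. The part of these levels in the HOX results was not tested.

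Of the noncoding RNAs of the clusters, 6 were above the filter. HOTAIR, transcribed from the opposite strand next to HOXC11, was called in no comparison with DMSO (8.58 ± 1.8 CPM in DMSO, 9.98 ± 2 with RA, 9.41 ± 4.07 with PB and 7.83 ± 2.77 with PB+RA). HOXC-AS3, which overlaps HOXC10 on the opposite strand, fell in PB+RA (log2 -1.84, adjusted p = 0.00146) to 8 counts in all against 35 in DMSO. HAGLR rose in PB+RA (log2 0.51) from 20.9 ± 1.27 to 30.4 ± 2.68 CPM and MIR10B, a microRNA locus of the HOXD cluster counted at 30 reads in DMSO, 79 with RA, 12 with PB and 56 with PB+RA, rose in RA (log2 1.54) and PB+RA (log2 1.11). HAGLR lies opposite HOXD1, whose log2 fold change in PB+RA was 2.15.

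Of 10 genes tested on the flanks of the clusters, PB raised 1 and lowered 1, RA raised 1 and lowered 0, and PB+RA raised 2 and lowered 2, all near the shares of all genes. CALCOCO1, which borders HOXC on the side of its posterior end, rose with RA (log2 0.81, 16.8 ± 1.55 to 29.8 ± 4.29 CPM), PB (log2 1.70, 54.6 ± 2.6 CPM) and PB+RA (log2 2.37). CBX5, beyond the opposite end, fell in PB (log2 -0.64) and PB+RA (log2 -1.16). Beside HOXD, MTX2 was at 39.3 ± 1.14 CPM in DMSO and 53.5 ± 2.3 in PB+RA (log2 0.42, under the fold minimum). Of 2 related homeobox genes outside the clusters above the filter, MNX1, a motor neuron gene, fell in PB (log2 -1.62) and PB+RA (log2 -1.84), and GBX2 rose as given above.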

How the data were processed

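PolyA RNA of 16 SK-N-BE(2)C samples was sequenced as strand-specific paired-end libraries. The authors trimmed reads with Trim Galore 0.6.4, aligned them to hg19 and counted them per gene with STAR 2.6.1d, and deposited whole-number counts and CPM (counts scaled to 1 M per sample). The strand column and annotation release are not given in the sources used here. The deposited table of log2 fold changes and adjusted p-values from DESeq2 1.32.0 was not used. No table held columns of other samples.

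Samples were grouped by their labels. Counts of 15415 of 27037 genes that passed filterByExpr were fitted over all 16 samples with edgeR 4.0.16 in R 4.3.3 (TMM, robust quasi-likelihood, 1 coefficient per group), with the thresholds given in the report. In a test on simulated counts for RA against DMSO over 15212 genes, 56% of 50 genes set to a log2 change of 0.6 were called. So were 82% of 50 genes at 1 and 100% of 50 at 2. In that test 15013 genes were set to no change, whereas 2053 of 15415 genes were called in the data. Counts were drawn independently for each sample, without the split between sets of replicates. These rates are therefore not the sensitivity of the main fit. Genes below the filter were compared by exact permutation tests over samples and by exact counting intervals. Floors and intervals cover counting error only. Alternatives were DESeq2 1.42.0, limma-voom 3.58.1, other scaling, filters and fold minimums, GC and length offsets, a replicate block, subsets of replicates and leaving out each library. Lengths of canonical transcripts were added after the data were seen. Same-numbered samples, as numbered in the labels, deviated together (r of 0.331 to 0.573 over 24 pairs). Samples of different number gave r of -0.492 to 0.447 over 72 pairs, a range that overlaps the former. Whether the numbers pair the samples beyond the split between the sets of replicates was not tested. The main fit and the permutation tests did not use the numbers, whereas the replicate block did.

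Every sample's value was given for HOX genes called in at least 1 comparison with a mean of at least 1 CPM, and the others by count or range. Genes of the fixed lists (adrenergic and mesenchymal markers, TALE cofactors, retinoid response, Polycomb, Trithorax, noncoding, flanking, axial regulators, other homeobox genes) were named among those called. The HOX genes and these lists were chosen with earlier results of these data known. Some genes of these lists and clusters are counted in the totals but not reported here by name.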

Additional observations from a re-analysis of the deposited data

Results flagged for a closer look

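The PB+RA change departed from the sum of the single changes by test for HOXD1 (interaction log2 1.05) and HOXD4 (interaction log2 -0.73). Their limits are given with the comparison.

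A single sample stood apart from its group of 4 in 2 of the 60 groups of the tested genes, where chance gives about 1 in 20. HOXC6 in DMSO replicate 2 was at 32.8 CPM, with the others from 29.4 to 29.9. HOXD8 in RA replicate 1 was at 34 CPM, with the others from 28.6 to 28.8.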

How the results depend on the processing

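Counts of HOX genes called stayed within 1.5 times with DESeq2, limma-voom, RLE size factors, the groups compared alone and the GC and length offset without a block. No gene called in all samples changed direction, but of the 1094 values for genes not called 69, from 13 genes, had the other sign, such as HOXD10 in PB (log2 -0.17 within replicates 1 and 2) and HOXC10 in PB+RA (0.08 within replicates 3 and 4). Over all single-gene values, 1731 kept their side of the thresholds, 30 gained and 48 lost a call.

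With no fold minimum PB raised 4 and lowered 4, PB+RA against PB lowered 1, PB+RA against RA raised 6 and lowered 7, and the interaction was below the sum for 2. With a log2 minimum of 1, PB lowered 1, RA raised 5, PB+RA raised 5, PB+RA against PB raised 3, PB+RA against RA raised 1 and lowered 2, and the interaction was below the sum for 0. These differ by construction. PB raised 1 gene with a filter on a mean of 1 CPM, within replicates 1 and 2 and within replicates 3 and 4, and lowered 1 within replicates 3 and 4. The interaction was above the sum for 0 genes in either set of replicates, below it for 0 within replicates 1 and 2 and with no filter, and below it for 2 within replicates 3 and 4. With the replicate block 3 genes were below the sum, and 2 with the block and the GC and length offset. The block also called HOXD13 in RA (log2 1.12, adjusted p = 0.0109) and against RA in PB+RA (-0.85, 0.0368), and HOXD11 in PB+RA (0.90, 0.0362), and changed no other call. The cause of these changes was not tested. No share of all genes stands beside these counts or those without single libraries, so they show only how the calls moved.

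Leaving out each library in turn gave 0 to 0 higher and 2 to 2 lower for PB, 8 to 10 and 0 to 0 for RA, 9 to 10 and 1 to 1 for PB+RA, 8 to 10 and 0 to 0 against PB, 1 to 3 and 3 to 5 against RA, and 0 to 1 above and 0 to 2 below the sum. HOXC6 against PB was called without PB replicate 1 or 2 or PB+RA replicate 3 or 4 (log2 0.51 to 0.54), and HOXC5 against RA without PB+RA replicate 3 or 4 (0.53 and 0.58). With groups 1 to 4 as anterior, the summed CPM of anterior HOXD in the order DMSO, RA, PB, PB+RA was 21, 33.8, 22.8 and 29, of central HOXD 13.8, 30, 11.6 and 23.2, and of central HOXC 99, 133, 119 and 166. Depth limits the HOXA and HOXB genes, most of which had fewer than 20 reads in all.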
